A study of Oryza sativa with 6 samples.

Results

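Cell cycle and DNA replication genes of rice (Oryza sativa) were followed in roots of the OsMADS61 mutant line mads61-3 and of wild-type (WT) plants, each with 3 RNA-seq libraries. The genes were taken by name from the deposited count table, without use of any measured value: a row was kept when its symbol began with the name of an A-, B-, D-, H-, T- or U-type cyclin, a cyclin-dependent kinase (CDK) of classes A to G, a CDC, MCM, ORC or RPA gene with a number, E2F, PCNA or a KRP inhibitor. This gave 62 of 36960 features, of which 59 had enough counts to be tested. OsMADS61 encodes a MADS-box transcription factor, and the study asked how it acts on nitrate transport in roots without a fungal partner. Plants of both groups stood in hydroponic medium with 2.5 mM nitrate, described in the labels as a high supply, with several seedlings sharing a tank. The labels give 1 mutant line, no plant age and no nature of the mutation, and do not say that replicates came from separate tanks, so the p-values rest on a spread among samples that may be technical.

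In a growing root, cells divide in the meristem behind the tip and then stop as they elongate and differentiate. D-type cyclins with CDKs start the cycle by releasing E2F factors, which turn on replication genes. ORC and CDC6 mark the origins of replication and load the MCM helicase, CDC45 activates it, and PCNA and the single-strand binding protein RPA act at the fork. A- and B-type cyclins and CDKB kinases carry cells through S phase, G2 and mitosis, and KRP proteins inhibit CDK complexes. Not every CDK or cyclin name marks division: CDKC with cyclin T and CDKE act on transcription by RNA polymerase II. CDC48 is an ATPase that extracts ubiquitinated proteins.

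Library totals ran from 24145708 to 34179150 counts. OsMADS61 (Os04g0461300, chromosome 4) had 6.24, 2.41 and 4.63 CPM (read counts relative to library size, with sizes scaled by the TMM method) in mads61-3 replicates 1 to 3, against 552, 573 and 2.38 CPM in the libraries labelled WT replicates 1 to 3. The edgeR log2 fold change of mads61-3 over WT was -6.40 (SE 1.71, adjusted p = 0.129) in the full set. Leaving out WT replicate 3 gave -6.99 (edgeR adjusted p = 0.00746). That library was singled out by its level of this same gene, so the lower p follows from the choice and is no support. The library labelled WT replicate 3 therefore goes against its label in this transcript, so the role medians, and the log2 fold changes of the main genes that it moves, are also given without it. The library labelled WT replicate 1 stood apart in a different way, described below. Of the root tip regulators used to check the tissue (PLT, SHR, SCR and CRL genes), 15 of 18 were expressed enough to be tested.

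No member passed the edgeR test between mutant and WT roots. With 59 tested, 0 calls is near the share of all features called and is not a result about the members. The same holds for the counts of 0 in single roles below. By edgeR's quasi-likelihood test, with Benjamini-Hochberg adjustment over the 25531 features tested, 0 of 59 members were called, either higher or lower, with an adjusted p under 0.05, where 1.25% of all features tested were called (0.325% higher and 0.924% lower). With an unadjusted p under 0.05, 1 member was higher (OsORC5) and 1 lower (OsCDC6), against 7.86% higher and 8.68% lower, or 16.5% together, of all features tested. DESeq2 called 0 members, against 7.67% of all features, with an unadjusted p under 0.05 for 4 (1 higher, 3 lower), where 17.2% of all features passed. Limma-voom also called 0, against 0.885%, with an unadjusted p under 0.05 for 3 (1 higher, 2 lower), where 16.3% passed. Log2 fold changes of mads61-3 over WT were negative in 42 and positive in 17 members, with a median of -0.19, beside -0.04 over all features tested. That median was not stable in sign: it was 0.01 by limma on log2(FPKM + 1), where the median of all features was 0.06, and 0.03 when the library labelled WT replicate 3 was left out. It was -0.50 without WT replicate 1 (all features, -0.01). In 2 members every mutant library lay above every library labelled WT and in 3 below, where 11.4% (above) and 11.3% (below) of all features tested did so, 22.7% together.

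**Figure D1:**
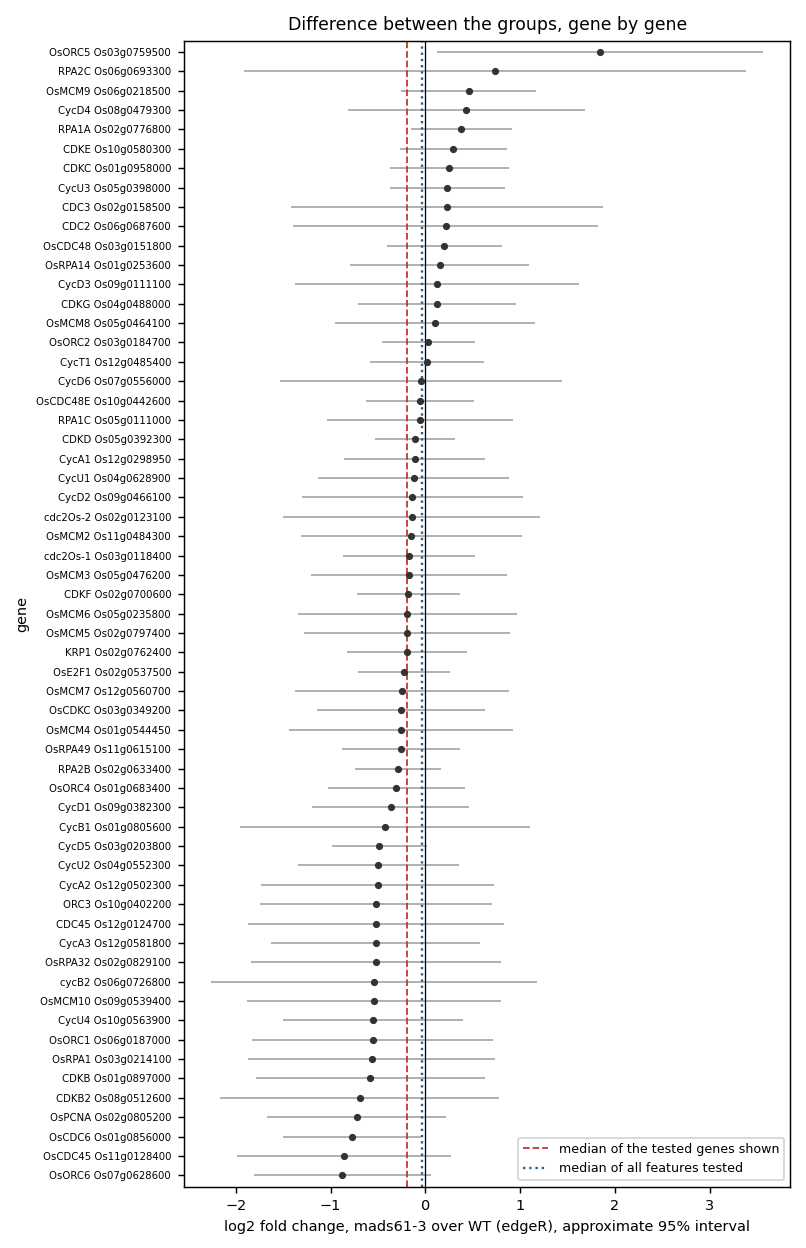
Log2 fold change of mads61-3 over WT for the 59 tested genes (points, edgeR) with approximate 95% intervals (bars), sorted by size. All but OsORC5 and OsCDC6 have intervals that include 0, and the median of the genes shown (dashed, -0.19) lies close to that of all features tested (dotted, -0.04).

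Libraries of the same group differed widely in these genes. WT replicate 1 held the lowest CPM of the 6 libraries in 40 of 59 members, whereas it did so in 26.6% of all features tested. The library labelled WT replicate 3 held the highest value in 31 members, against 25% of all features tested. These 2 libraries stood apart in both directions over all features tested. WT replicate 1 was the highest library in 27.7% of them, and the one labelled WT replicate 3 was the lowest in 26.7%. Among the members each of these counts was 6. Over all features tested the 2 libraries had the lowest rank correlation of any pair, at 0.882. Among the WT libraries alone, replicate 1 was lowest in 79.7% of members and in 38.4% of all features tested, and among the mutants replicate 2 was highest in 72.9% and 42.4%. The median over members of the log2 level, relative to each gene's mean over the 6 libraries, was -0.21, 0.23 and -0.22 in mads61-3 replicates 1 to 3 and -0.79, 0.37 and 0.54 in those labelled WT replicates 1 to 3. Over all features tested it stayed between -0.01 and 0.03 in every library. The TMM scaling centres the typical feature in each library, so those values do not show that the spread is particular to these genes. The highest mutant library exceeded the lowest by a median of 1.49-fold across members, and for the libraries labelled WT this ratio was 2.84. Over all features tested the medians were 1.43 for the mutants and 1.98 for WT. In bulk roots, fewer dividing cells and less of a transcript per cell cannot be told apart. These shares describe the libraries and were looked for after the values were seen.

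**Figure D2:**
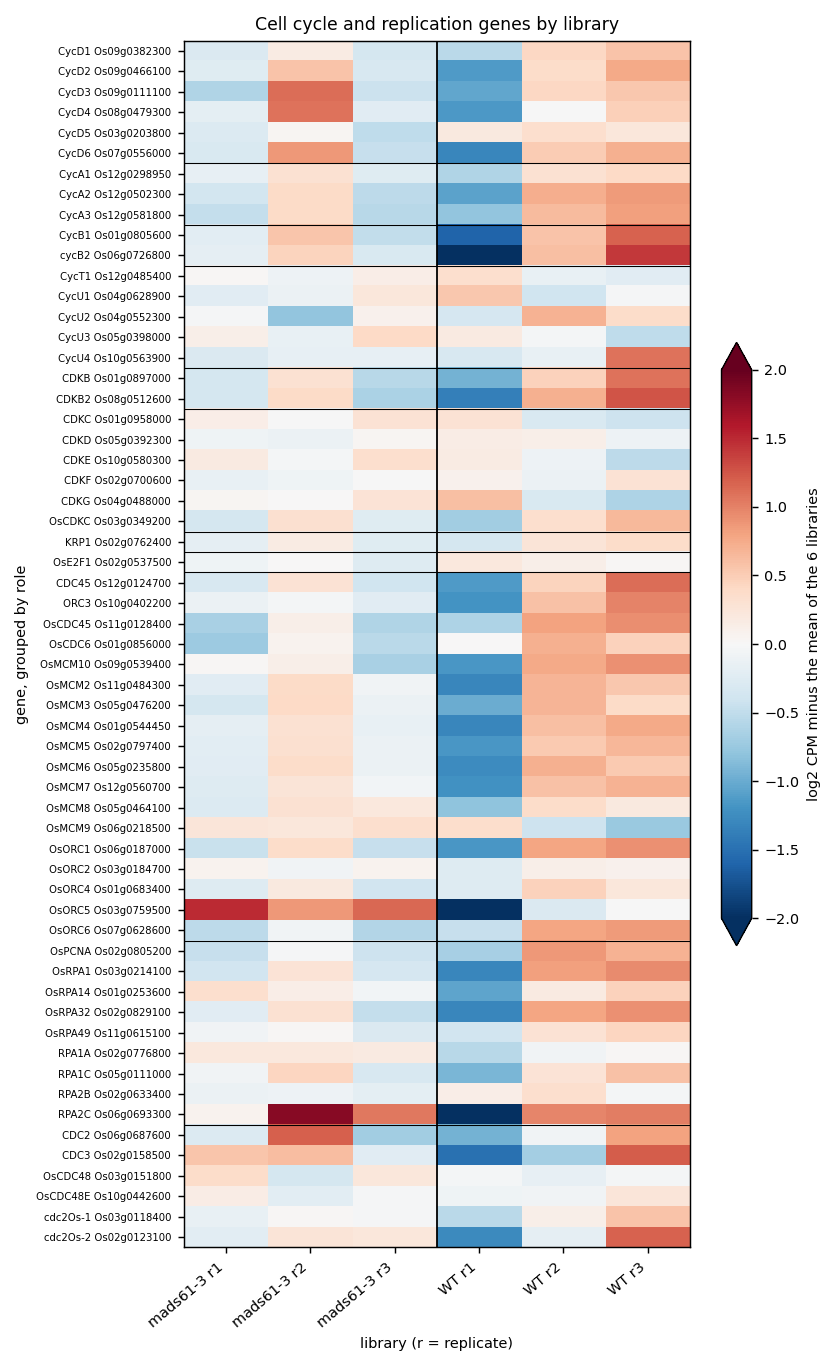
Log2 CPM of each tested gene minus its mean over the 6 libraries (colour), with the mads61-3 libraries on the left and the libraries labelled WT on the right, and genes grouped by role. WT replicate 1 is blue across most cyclin, CDKB, MCM, ORC and RPA rows and mads61-3 replicate 2 and the other WT libraries are red there, whereas CDKG is red in WT replicate 1 and blue in the library labelled WT replicate 3.

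D-type cyclins couple growth signals to entry into the cycle. Of 7 genes, CycD7 had 0 counts in every library and 6 were tested, with 0 called, and all 6 had their highest mutant value in replicate 2. CycD5 (Os03g0203800, chromosome 3) had 67.4, 84.1 and 57.2 CPM in mads61-3 replicates 1 to 3, against 93.2, 104 and 95.6 CPM in the libraries labelled WT replicates 1 to 3. It was the one D-type cyclin whose groups did not overlap, and its WT libraries lay close together; its log2 fold change was -0.49 (SE 0.21, interval -0.99 to 0.01, adjusted p = 0.312). CycD2 (Os09g0466100) stood at 30.2, 53.2 and 28.5 CPM in the mutants and 16.4, 46.4 and 60.5 CPM in WT, so that the WT libraries enclosed every mutant value. CycD4 (Os08g0479300) had 11.3, 27.6 and 11.1 CPM in the mutants and 5.87, 12.99 and 18.2 CPM in WT, a difference of 0.43 on the log2 scale (SE 0.53, adjusted p = 0.741) that turned to -0.14 without mads61-3 replicate 2 and was 0.82 without the one labelled WT replicate 3 and 0.0891 without WT replicate 1. That library held more than the other mutants in each of these 3 genes. CycD1, CycD3 and CycD6 were also lowest in WT replicate 1, with log2 fold changes from -0.37 (CycD1) to 0.13 (CycD3).

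A-type cyclins act in S phase and G2, and 0 of 3 were called. All of them were lowest in WT replicate 1 and highest in the library labelled WT replicate 3, with the mutants between. CycA1 (Os12g0298950) had 26.9, 37.2 and 25.3 CPM in mads61-3 and 19.9, 37.03 and 39.9 CPM in the libraries labelled WT. CycA2 (Os12g0502300) had 14.7, 24.8 and 13.2 CPM in mads61-3 and 8.97, 31.5 and 34.2 CPM in WT, and the log2 difference was -0.50 (SE 0.52, adjusted p = 0.689), or -0.21 without the one labelled WT replicate 3 and -0.91 without WT replicate 1. The third, CycA3 (Os12g0581800), had 15.4, 28.03 and 14.7 CPM in mads61-3 and 12.4, 33.2 and 37.8 CPM in WT. Mutant replicates 1 and 3 were close to each other in each of these genes, and replicate 2 was nearer to the upper WT libraries.

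B-type cyclins activate the mitotic kinase. CycB1 (Os01g0805600, chromosome 1) had 54.1, 91.8 and 44.4 CPM in mads61-3 replicates 1 to 3, against 20.6, 92.9 and 142 CPM in the libraries labelled WT replicates 1 to 3. For cycB2 (Os06g0726800, chromosome 6) the values were 47.6, 74.02 and 44.02 CPM in mads61-3 and 13.6, 82.5 and 144 CPM in WT, a ratio of 10.6 between the highest and the lowest WT library, against 1.68 among the mutants. Their log2 fold changes were -0.42 (SE 0.64, interval -1.95 to 1.10, adjusted p = 0.799) and -0.54 (SE 0.72, interval -2.26 to 1.18, adjusted p = 0.769). Both turned positive without the library labelled WT replicate 3, at 0.16 and 0.20. A further gene listed as OsCycB1 (Os01g0281200) was too low to be tested, with 5, 14 and 3 counts in mads61-3 and 0, 5 and 62 counts in WT.

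CDKB kinases, a plant class made in G2 and mitosis, had the same order of the 6 libraries as CycB1. CDKB2 (Os08g0512600) had 20.9, 34.7 and 17.2 CPM in mads61-3, against 10.2, 43.5 and 63.7 CPM in the libraries labelled WT. CDKB (Os01g0897000) had 14.8, 23.2 and 12.7 CPM in mads61-3, against 9.76, 25.9 and 40.03 CPM in WT. The log2 fold change was -0.69 (SE 0.62, adjusted p = 0.643) for CDKB2 and -0.58 (SE 0.51, adjusted p = 0.634) for CDKB, and the WT libraries enclosed the mutants in both. Leaving out the library labelled WT replicate 3 brought them to -0.15 (CDKB2) and -0.0799 (CDKB), and leaving out WT replicate 1 to -1.15 (CDKB2) and -0.97 (CDKB). The A-type kinase gene cdc2Os-1 (Os03g0118400), which is needed throughout the cycle, had 50.6, 57.4 and 55.00 CPM in mads61-3 and 38.7, 61.03 and 83.5 CPM in WT, and its relative cdc2Os-2 had a log2 fold change of -0.15. KRP1 (Os02g0762400), a CDK inhibitor gene, had 15.2, 19.5 and 14.6 CPM in mads61-3 and 13.5, 20.6 and 22.3 CPM in WT (log2 -0.19, adjusted p = 0.777; -0.0532 without the one labelled WT replicate 3), and OsKRP2 had 0 counts in every library.

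OsE2F1 (Os02g0537500, chromosome 2) did not share this spread. Its values were 15.3, 16.4 and 13.6 CPM in mads61-3 and 18.8, 17.7 and 16.5 CPM in WT, where every mutant library lay below every library labelled WT, the nearest of them by a narrow margin. With means of 15.1 ± 1.39 CPM in mads61-3 and 17.7 ± 1.14 CPM in WT (SD, n = 3 each), the log2 fold change was -0.23 (SE 0.21, interval -0.71 to 0.26, adjusted p = 0.646). It was the single E2F gene that the name rule found.

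**Figure D3:**
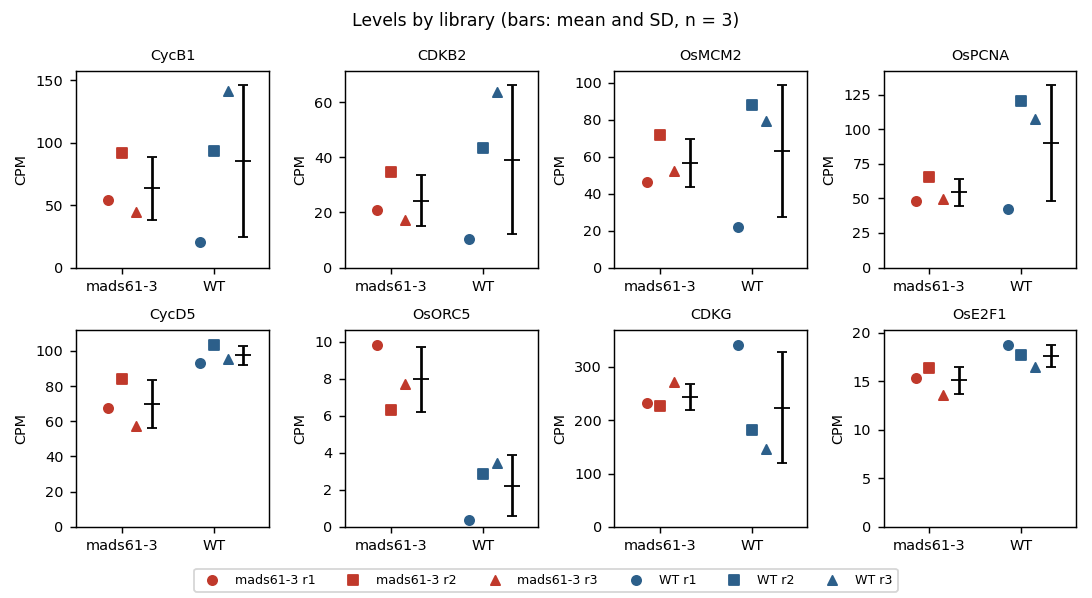
CPM per library for 8 members (points; circles, squares and triangles are replicates 1, 2 and 3), with mads61-3 left of WT and the mean ± SD (n = 3) beside the points. In CycB1, CDKB2, OsMCM2 and OsPCNA the lowest of all points is WT replicate 1 and the WT bars are wide, while in CycD5, OsORC5 and OsE2F1 the groups do not overlap.

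Licensing and helicase genes made up 18 of the members, all tested, with 0 called; 14 had negative and 4 positive log2 fold changes, and the median was -0.25. The MCM2 to MCM7 genes encode the 6 subunits of the replicative helicase. OsMCM2 (Os11g0484300, chromosome 11) had 46.6, 71.6 and 52.3 CPM in mads61-3, against 22.2, 87.96 and 79.1 CPM in the libraries labelled WT. OsMCM3 (Os05g0476200, chromosome 5) had 33.6, 56.4 and 39.8 CPM in mads61-3, against 21.5, 68.5 and 56.3 CPM in WT. In each of the 6 subunit genes WT replicate 1 was the lowest library and mads61-3 replicate 2 the highest mutant. In WT replicate 1 they ranged from 10.02 CPM (OsMCM7) to 22.2 CPM (OsMCM2), in WT replicate 2 from 34.8 to 87.96 CPM. Log2 fold changes of the 6 lay between -0.26 (OsMCM4) and -0.15 (OsMCM2), although by limma on log2(FPKM + 1) OsMCM2 was at 0.11 and OsMCM3 at 0.0260; for OsMCM2 the edgeR interval was -1.32 to 1.01 (adjusted p = 0.914). Relative to gene length, on the authors' FPKM scale, OsMCM2 had 13.7, 23.2 and 14.8 in mads61-3 and 5.51, 26.7 and 23.6 in WT, and OsMCM6 had 10.7, 17.7 and 11.02 in mads61-3 and 4.39, 21.1 and 18.2 in WT.

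OsMCM9 (Os06g0218500), an MCM relative that in animals serves in DNA repair and is not part of the replicative helicase, went the other way. It had 81.3, 80.5 and 86.5 CPM in mads61-3 and 88.03, 51.9 and 41.1 CPM in WT, so that WT replicate 1 was here the highest library and the one labelled WT replicate 3 the lowest. The log2 fold change was 0.46 (SE 0.30, adjusted p = 0.510), which became 0.24 without the one labelled WT replicate 3 and 0.83 without WT replicate 1. OsMCM8 and OsMCM10 were low, with at most 2.10 CPM (OsMCM8) and 6.73 CPM (OsMCM10) in any library.

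Genes of the origin recognition complex did not move as 1 unit. OsORC5 (Os03g0759500, chromosome 3) had 9.85, 6.34 and 7.75 CPM in mads61-3 replicates 1 to 3, against 0.350, 2.85 and 3.45 CPM in the libraries labelled WT replicates 1 to 3. All mutants lay above all WT libraries, and WT replicate 1 held 8 reads. Its log2 fold change of 1.84 (SE 0.72, interval 0.12 to 3.56, unadjusted p = 0.0391 by edgeR) was the largest among the members but did not pass the adjustment (adjusted p = 0.273). Leaving out WT replicate 1 gave 1.34 (adjusted p = 0.0732), and leaving out the one labelled WT replicate 3 gave 2.31 (adjusted p = 0.199). OsORC6 (Os07g0628600) had 7.03, 9.71 and 6.79 CPM in mads61-3 and 7.35, 17.6 and 18.3 CPM in WT (log2 -0.88, SE 0.39, adjusted p = 0.328), the lowest log2 fold change of the members. OsORC1, OsORC2, ORC3 and OsORC4 lay between -0.56 (OsORC1) and 0.03 (OsORC2). OsORC2 varied little, at 19.9, 18.1 and 20.01 CPM in mads61-3 and 15.98, 20.6 and 20.1 CPM in WT, while OsORC1, at 16.6, 28.9 and 16.3 CPM in mads61-3 and 10.02, 38.6 and 42.2 CPM in WT, was lowest in WT replicate 1 and highest in the library labelled WT replicate 3.

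OsCDC6 falls outside the rule for named genes and was chosen after its values were seen, as the member lower at an unadjusted p; so were the other licensing genes given here with values beyond OsMCM2, OsMCM3, OsMCM9, OsORC5 and OsORC6. OsCDC6 (Os01g0856000, chromosome 1), which loads the helicase, had 9.42, 16.3 and 10.7 CPM in mads61-3, against 15.7, 25.3 and 21.5 CPM in the libraries labelled WT. WT replicate 1 was not the lowest library here, and mads61-3 replicate 2 overlapped it. The log2 fold change was -0.78 (SE 0.31, unadjusted p = 0.0400, edgeR adjusted p = 0.275). OsCDC45 (Os11g0128400, chromosome 11) and CDC45 (Os12g0124700, chromosome 12) sit in a block that these chromosomes share by duplication, so the split of reads between the copies is uncertain. They had 3.09, 5.25 and 3.16 CPM (OsCDC45) and 3.18, 4.85 and 3.01 CPM (CDC45) in mads61-3, against 3.15, 8.48 and 9.22 CPM (OsCDC45) and 1.79, 5.43 and 8.61 CPM (CDC45) in WT.

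At the fork, 0 of 9 members were called. OsPCNA (Os02g0805200, chromosome 2), the sliding clamp of DNA polymerases, had 48.2, 65.5 and 49.5 CPM in mads61-3 replicates 1 to 3, against 41.98, 121 and 107 CPM in the libraries labelled WT replicates 1 to 3. WT replicates 2 and 3 exceeded every mutant and WT replicate 1 lay below every mutant, which left a log2 fold change of -0.72 (SE 0.40, interval -1.67 to 0.22, adjusted p = 0.425). Without WT replicate 1 it was -1.07 with an adjusted p of 0.0501 by edgeR, the lowest of any member in that fit and still not past the threshold. WT replicate 1 held the lowest OsPCNA level, so leaving it out moves the log2 fold change down. Leaving out WT replicate 2 gave -0.45 (adjusted p = 0.776), and leaving out the one labelled WT replicate 3 gave -0.58 (adjusted p = 0.547). OsRPA1 (Os03g0214100), a large RPA subunit gene, had 36.5, 57.7 and 37.7 CPM in mads61-3 and 19.3, 84.6 and 91.5 CPM in WT, and the log2 fold change was -0.57 (SE 0.55, adjusted p = 0.671). This was -1.01 without WT replicate 1, -0.33 without WT replicate 2 and -0.24 without the one labelled WT replicate 3. OsRPA32, for the middle subunit, was likewise lowest in WT replicate 1 and highest in the library labelled WT replicate 3, with 14.3, 20.6 and 12.01 CPM in mads61-3 and 6.74, 28.99 and 31.6 CPM in WT.

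RPA1A and RPA2B varied less among the WT libraries than OsRPA1 and OsRPA32. RPA1A (Os02g0776800) had 22.7, 22.7 and 22.3 CPM in mads61-3, against 13.4, 18.7 and 19.9 CPM in WT, with no overlap between groups and a log2 fold change of 0.38 (adjusted p = 0.461). RPA2B (Os02g0633400) had 25.6, 25.8 and 24.3 CPM in mads61-3, against 30.3, 35.05 and 26.9 CPM in WT, also without overlap but in the opposite direction (log2 -0.29, adjusted p = 0.513). Neither difference passed the test. RPA1C, at 16.2, 22.9 and 13.6 CPM in mads61-3 and 8.97, 20.6 and 25.3 CPM in WT, and OsRPA14, at 16.8, 14.6 and 12.8 CPM in mads61-3 and 6.35, 15.1 and 18.3 CPM in WT, were again lowest in WT replicate 1. RPA2C (Os06g0693300) was low, with 24, 72 and 38 counts in mads61-3 and 0, 33 and 38 counts in WT. OsRPA49 carries the name of an RNA polymerase I subunit in yeast. It was kept, and counted among the 9 fork members, because the rule goes by name. Its log2 fold change of -0.26 (edgeR adjusted p = 0.687) was also the median of that role with all libraries.

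Of the 6 kinase genes CDKC to CDKG, WT replicate 1 was the lowest library in 1, OsCDKC. CDKG (Os04g0488000) had 232, 227 and 271 CPM in mads61-3 and 342, 182 and 146 CPM in the libraries labelled WT, with WT replicate 1 the highest of all. CDKC (Os01g0958000) had 196, 177 and 219 CPM in mads61-3 and 219, 145 and 133 CPM in WT, and CycT1 (Os12g0485400), the cyclin type that pairs with CDKC in transcript elongation, had 317, 292 and 344 CPM in mads61-3 and 393, 281 and 267 CPM in WT. These genes share an order among the WT libraries, with replicate 1 on top and the one labelled replicate 3 at the bottom, the reverse of the B-type cyclins. CDKE (Os10g0580300), the kinase of the Mediator complex, had 87.9, 74.8 and 97.1 CPM in mads61-3 and 86.6, 71.6 and 53.4 CPM in WT (log2 0.30, SE 0.24, adjusted p = 0.600; 0.13 without the one labelled WT replicate 3). The gene listed as CDKF (Os02g0700600) had 282, 294 and 311 CPM in mads61-3 and 333, 289 and 382 CPM in WT. The median log2 fold change of the 6 kinase genes was 0.01, with 0 called, and CDKD was at -0.11. A second CDKC gene, OsCDKC (Os03g0349200), had 24.1, 38.7 and 26.2 CPM in mads61-3 and 19.1, 38.9 and 48.3 CPM in WT, lowest in WT replicate 1 and highest in the library labelled WT replicate 3, as in the A-type cyclins.

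U-type cyclins, whose relatives in yeast serve in phosphate sensing, gave 0 calls as well. CycU3 (Os05g0398000) had 84.9, 71.01 and 104 CPM in mads61-3 and 89.3, 76.6 and 55.5 CPM in WT. CycU2 (Os04g0552300) had 15.3, 8.98 and 16.3 CPM in mads61-3 and 12.2, 24.99 and 20.1 CPM in WT (log2 -0.50, adjusted p = 0.550). CycU4 (Os10g0563900) had 12.1, 13.1 and 13.2 CPM in mads61-3 and 11.8, 13.3 and 31.3 CPM in WT, a difference that the library labelled WT replicate 3 alone carried: its log2 fold change was -0.55, and 0.0277 when that library was left out. Among other CDC names, OsCDC48E (Os10g0442600) had 357, 276 and 317 CPM in mads61-3 and 302, 305 and 379.7 CPM in WT, and OsCDC48 (Os03g0151800) had 251, 151 and 227 CPM in mads61-3 and 187, 172 and 189 CPM in WT. On the authors' FPKM scale OsCDC48E was the most abundant member in every library, at 119, 107 and 99.9 in mads61-3 and 89.9, 110.1 and 131 in WT. The rows listed as CDC2 (Os06g0687600) and CDC3 (Os02g0158500) were low, at 1.14, 3.17 and 0.844 CPM (CDC2) and 6.21, 6.47 and 3.60 CPM (CDC3) in mads61-3 and 0.700, 1.31 and 2.42 CPM (CDC2) and 1.49, 2.61 and 9.79 CPM (CDC3) in WT, with log2 fold changes of 0.21 (CDC2) and 0.23 (CDC3). Without the one labelled WT replicate 3 these were 0.77 (CDC2) and 1.40 (CDC3), and without WT replicate 1 they were negative, at -0.13 (CDC2) and -0.20 (CDC3).

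**Figure D4:**
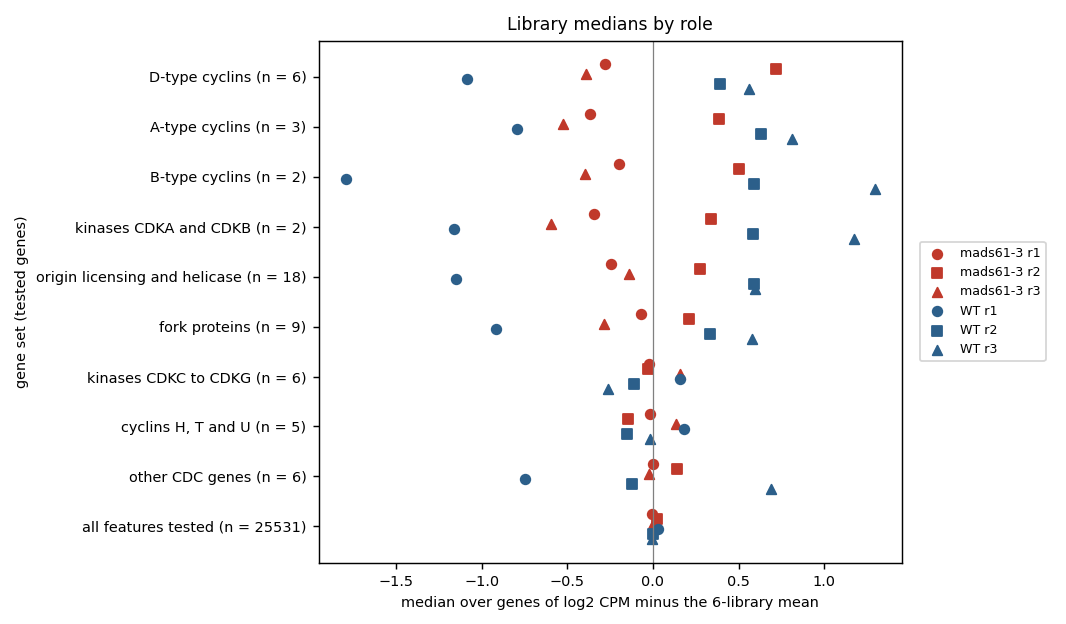
Median over the tested genes of each role of log2 CPM minus the gene's 6-library mean, by library (red, mads61-3; blue, libraries labelled WT; marker shape, replicate); single KRP and E2F genes are not drawn. WT replicate 1 lies between -1.79 and -0.79 for the A-, B- and D-type cyclins, CDKB, licensing and fork genes and at -0.74 for other CDC genes. It lies at 0.16 for CDKC to CDKG and 0.18 for cyclins H, T and U. All libraries lie near 0 over all features tested, where the TMM scaling centres the typical feature.

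The roles thus differed in how far WT replicate 1 lay below the rest. Its median relative log2 level was -1.79 for B-type cyclins, -1.16 for CDKB kinases, -1.15 for licensing and helicase genes, -1.09 for D-type cyclins, -0.91 for fork proteins and -0.79 for A-type cyclins, but 0.16 for CDKC to CDKG. The level was -0.74 for other CDC genes, a mixed class. In that class OsCDC48 and OsCDC48E were at -0.0450 and -0.0869, and cdc2Os-1 and cdc2Os-2 at -0.54 and -1.27. The rows CDC2 and CDC3 were at -0.95 and -1.48. KRP1 was at -0.36, OsE2F1 at 0.20 and the T- and U-type cyclins at 0.18. With this library left out, 48 of 60 members tested had negative log2 fold changes. Of these 60 members, 24 were lower at an unadjusted p under 0.05 and 4 were higher, where 14.7% of all features were lower at that p and 28.6% passed it in either direction. After adjustment 0 were called, against 2.51% of all features. The 24 included 12 licensing and helicase genes and both CDKB kinases. Most members were lowest in WT replicate 1, so leaving it out raises their WT mean and moves the log2 fold changes down. The WT libraries that remain include the one labelled WT replicate 3, which goes against its label in OsMADS61. The counts from this fit are therefore no support for lower levels in mads61-3. Without the library labelled WT replicate 3, 0 were lower and 2 higher at an unadjusted p (OsORC5 and CDC3), against 10.2% of all features lower and 19.4% in either direction; 0 members were called, against 2.76% of all features. The median log2 fold change was then 0.27 for D-type, -0.21 for A-type and 0.18 for B-type cyclins, -0.11 for CDKB, 0.00696 for licensing and helicase genes, -0.0972 for fork proteins, -0.0193 for CDKC to CDKG and 0.47 for other CDC genes. With all libraries these medians were -0.09 (D-type), -0.50 (A-type), -0.48 (B-type), -0.63 (CDKB), -0.25 (licensing and helicase), -0.26 (fork), 0.01 (CDKC to CDKG) and 0.07 (other CDC genes).

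Other genes of DNA replication and division were taken by name from further lists. These lists are short, so with 1.25% of all features tested called, 0 calls in a list is not a result about its genes. Among replication enzymes, 0 of 25 tested genes were called and 0 had an unadjusted p under 0.05, against 16.5% of all features tested. The median log2 fold change of these enzymes was 0.04. Their most abundant rows were RFC3 (Os05g0230600), a clamp loader subunit, at 253, 228 and 252 CPM in mads61-3 and 204, 243 and 303 CPM in WT, and OsTOP1, a topoisomerase, at 161, 157 and 173 CPM in mads61-3 and 175, 163 and 149 CPM in WT. WT replicate 1 was the lowest of all 6 libraries in 15 of these 25 genes, against 26.6% of all features tested. In the histone list 0 of 8 tested rows were called. That list also caught homeobox and other genes by spelling (OSH1, Osh36), so its top rows were H1 at 229, 297 and 326 CPM in mads61-3 and 285, 253 and 137 CPM in WT and Osh36 at 188, 110.2 and 106 CPM in mads61-3 and 33.2, 82.9 and 195 CPM in WT. Of 18 genes of mitosis and cytokinesis 0 were called and 1 was higher at an unadjusted p, against 7.86% of all features tested. That gene was SMC6, of chromosome maintenance, at 8.34, 4.56 and 8.77 CPM in mads61-3 and 3.41, 3.45 and 3.59 CPM in WT (log2 1.05, edgeR adjusted p = 0.192).

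SMC3, of the cohesin ring that holds sister chromatids, had 92.6, 100.2 and 91.9 CPM in mads61-3 and 112, 94.3 and 75.7 CPM in WT, and SMC5 had 96.3, 99.1 and 96.5 CPM in mads61-3 and 104, 81.5 and 69.2 CPM in WT. These 2 most abundant genes of the mitosis and cytokinesis list were highest in WT replicate 1, but WT replicate 1 was the lowest library in 11 of the 18, against 26.6% of all features tested. Among those 11 were SMC2, at 30.8, 46.4 and 30.4 CPM in mads61-3 and 21.4, 53.4 and 56.6 CPM in WT, and SMC4, at 19.4, 30.8 and 17.8 CPM in mads61-3 and 13.9, 35.2 and 38.6 CPM in WT, both of the condensin complex and named after their values were seen. Among 6 cell cycle regulators 0 were called. OsMYB3R-1 (Os12g0238000), of a MYB class that binds promoters of mitotic genes, had 11.2, 17.2 and 10.2 CPM in mads61-3 and 5.65, 24.4 and 29.3 CPM in WT, the same order of the 6 libraries as in CycB1. Its relative OsMYB3R-2 had 38.7, 37.2 and 41.8 CPM in mads61-3 and 70.8, 44.5 and 38.4 CPM in WT, with WT replicate 1 on top.

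Markers of root zones and of shoot tissue were summed beside these values. The A-, B- and D-type cyclins, CDKB, KRP, E2F and replication genes together came to 920.0, 1289 and 894 CPM in mads61-3 replicates 1 to 3 and to 656, 1496 and 1650.0 CPM in those labelled WT replicates 1 to 3. All root tip regulators together had 185, 248 and 213 CPM in mads61-3 and 98.1, 179 and 174 CPM in WT. Of the 15 tested, 8 were lowest in WT replicate 1 (26.6% of all features tested) and 0 were called (1.25%), and OsPLT10 had 0 counts in every library. Of these 15, 2 were higher at an unadjusted p, against 7.86% of all features tested. They were CRL4, at 65.9, 40.05 and 43.1 CPM in mads61-3 and 21.3, 12.99 and 15.8 CPM in WT (edgeR adjusted p = 0.0606), and SHR5, caught by its spelling, at 26.9, 14.8 and 71.99 CPM in mads61-3 and 1.18, 3.56 and 15.3 CPM in WT (adjusted p = 0.274). The PLT genes, which maintain the root meristem and were singled out from that list after their values were seen, summed to 53.4, 149 and 50.5 CPM in mads61-3 and 37.0, 107 and 106 CPM in WT. OsPLT1 had 24.1, 58.4 and 21.5 CPM in mads61-3 and 16.1, 38.8 and 47.1 CPM in WT. Of the 8 tested PLT genes, 5 were lowest in WT replicate 1 and 8 were highest among the mutants in replicate 2. In the whole list of root tip regulators 10 of 15 tested genes were highest among the mutants in replicate 2, OsSCR1 and OsSCR2 among them, against 42.4% of all features tested. The rest (CRL1, CRL4, SHR5, OsSHR1 and OsSHR2) were highest among the mutants in replicate 1 or 3.

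Photosynthesis genes, a sign of shoot or greening tissue, summed to 77.0, 485 and 282 CPM in mads61-3 and 55.5, 78.4 and 30.8 CPM in WT, and 0 of 25 tested were called, with 15 higher at an unadjusted p, where 7.86% of all features tested were. Of these 29 genes, 0, 0 and 1 had no counts in mads61-3 replicates 1 to 3 and 5, 1 and 10 in those labelled WT replicates 1 to 3. The silicon transporters LSI1 and LSI2, which mark endodermis and exodermis, summed to 5780, 2920 and 7003 CPM in mads61-3 and 3056, 1411 and 836 CPM in WT. Root hair genes gave 72.5, 69.9 and 72.4 CPM in mads61-3 and 62.6, 60.1 and 106 CPM in WT. The part of these markers in the levels of the division genes was not tested.

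**Figure D5:**
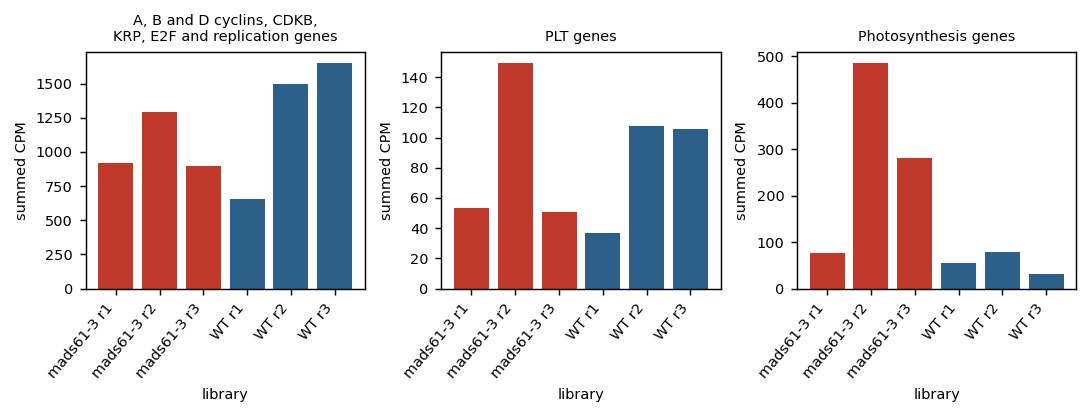
Summed CPM per library (bars, with red for mads61-3 and blue for libraries labelled WT) of the division and replication genes (left), the PLT genes of the root meristem (middle) and photosynthesis genes (right). The PLT genes were picked from the root tip list after their values were seen. WT replicate 1 has the lowest bar in the left and middle panels (656 and 37.0 CPM), and mads61-3 replicate 2 has the highest bar in the middle and right panels.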

How the data were processed

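Root RNA-seq libraries of mads61-3 and WT were compared, 3 against 3. The deposited table holds raw read counts per gene and FPKM values that the authors made; per the submitters' processing notes the tools were HISAT2 2.0.5, SAMtools 0.1.18, StringTie 1.3.3, Picard 1.41, FastQC 0.11.9 and CASAVA 1.8.2. Those notes name GRCh38, a human build; the rice build, annotation, counting tool and strand setting were not given in the sources used here. A gene and an overlapping or antisense gene therefore cannot be told apart, and no coordinates are printed. Columns named mads61-1 to mads61-3 were taken to be line mads61-3, replicates 1 to 3.

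Deposited counts were tested with edgeR 4.0.16 in R 4.3.3 (TMM scaling, filterByExpr with a minimum count of 10, robust two-sided quasi-likelihood test, Benjamini-Hochberg adjustment over all features tested, threshold 0.05), and the procedure was tested on simulated data. CPM use TMM-scaled library sizes. Alternatives were DESeq2 1.42.0, limma 3.58.1 with voom, limma on log2(FPKM + 1) and log2(FPKM + 0.1) of the deposited FPKM, other scalings, no filter, a replicate block and each library left out. In each role the up to 3 most abundant tested genes and the up to 2 with the largest absolute log2 fold change at a mean of 1 CPM or more are named; others named were chosen after their values were seen. The genes and lists were chosen with earlier results of these data known. Symbols are those of the deposited table, and chromosomes are those in its locus identifiers.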

Additional observations from a re-analysis of the deposited data

How the results depend on the processing

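No member was called by edgeR, DESeq2, limma-voom or limma on FPKM. The count was also 0 under the other scalings, with no filter, with the replicate block and with any library left out. Without mads61-3 replicate 1 or replicate 3 no feature at all was called, and without mads61-3 replicate 2 only 14 were. The 0 among members in those 3 fits therefore says nothing about the members. Over all features 319 were called, against 2481 by DESeq2, 486 by limma on log2(FPKM + 0.1), 81 with the replicate block and 0 to 724 with 1 library left out. OsMADS61 had a log2 fold change of -6.39 by DESeq2, past the threshold, and -4.49 by limma-voom, not past it (adjusted p = 0.450). With 1 library left out it was -6.99 to -5.96. Same-numbered mutant and WT libraries correlated at 0.0939, 0.157 and -0.151 in their deviations from the group means. Pairs with different numbers ran from -0.24 to 0.20. With 3 libraries a group, these values cannot settle whether same-numbered libraries shared a tank or batch. With the replicate block the median of the members was -0.07. Of 43 named genes tested, 23 kept their sign in every alternative and 20 turned in at least 1; the cause was not tested.

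By limma on log2(FPKM + 1), with and without a filter, log2 fold changes turned to 0.16 (CDKF), 0.0329 (CycA1), 0.11 (CycD2), 0.11 (OsMCM2), 0.0260 (OsMCM3), 0.0238 (cdc2Os-1) and 0.00679 (RFC3). With a pseudocount of 0.1 they were 0.17 (CDKF), 0.0352 (CycA1), 0.0189 (CycB1), 0.15 (CycD2), 0.14 (OsMCM2), 0.0411 (OsMCM3), 0.0264 (cdc2Os-1), 0.000212 (cycB2) and 0.00726 (RFC3). The replicate block turned CycD2 to 0.00365 and OsMCM2 to 0.0460, limma-voom turned OsMCM2 to 0.0564, and total-count scaling turned OsCDC48E to 0.00756 and RFC3 to 0.0246.

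With 1 library left out, the log2 fold changes that turned ranged from -0.57 to 0.77 (CDC2), -0.20 to 1.40 (CDC3), -0.11 to 0.57 (CDKG), -0.37 to 0.0661 (CycA1), -0.89 to 0.16 (CycB1), -0.52 to 0.25 (CycD2) and -0.14 to 0.82 (CycD4). They ranged from -0.0846 to 0.22 (CycT1), -0.80 to 0.0277 (CycU4), -0.11 to 0.0602 (OsCDC48E), -0.56 to 0.0334 (OsCDKC), -0.56 to 0.16 (OsMCM2), -0.53 to 0.15 (OsMCM3), -0.41 to 0.12 (cdc2Os-1) and -1.04 to 0.20 (cycB2). Among the further lists the ranges were -0.0464 to 0.0694 (OsTOP1), -0.0445 to 1.22 (Osh36), -0.16 to 0.13 (RFC3) and -0.12 to 0.16 (SMC3). With 3 libraries a group and WT libraries this far apart, intervals were wide, and a p that misses the threshold does not show that the groups are alike.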
